A study of Sus scrofa with 6 samples.

Results

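The calgranulins are 3 small calcium-binding proteins of the S100 family, S100A8, S100A9 and S100A12, and their messenger RNAs were read here in the hypothalamus, pituitary and ovary of sows. They are the genes named S100A8, S100A9 or S100A12 in the deposited tables, 3 of 19465 genes, and each had 1 entry in the table of each tissue. They were chosen by their normalised counts in these same 6 libraries, so the differences between libraries given for them are a description, with no test. The animals were crossbred sows (landrace x large white) after their first litter, either estrous, in normal estrus, or anestrous, which the labels attribute to inactive ovaries. The labels give 3 sows per state and 1 library per tissue and state, and leave unstated whether their RNA was pooled. No group had a replicate library, so each comparison below sets 1 library against 1 other, and its intervals cover counting error only.

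S100A8 and S100A9 pair into calprotectin, which neutrophils carry in large amounts in their cytosol and which monocytes and some macrophages and stressed epithelia also make. S100A12 is closely related and is made mainly by granulocytes and monocytes. Released from cells, the calgranulins act as danger signals through Toll-like receptor 4 (TLR4) and the receptor for advanced glycation end products (RAGE, gene AGER), and they starve microbes by binding zinc, manganese and other metals. In the ovary, leukocytes enter around ovulation, in the regressing corpus luteum and where follicles degenerate.

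Each library held 15314325 to 17384789 reads assigned to genes, and between 15182 and 15591 genes had at least 1 read. All 15 genes checked as defining for the 3 tissues, 5 for each, were higher in both libraries of their own tissue than in any library of the other tissues; PRL and GH1 for the pituitary, GFAP and HCRT for the hypothalamus, and STAR and FSHR for the ovary are examples. The 10 genes with most reads took 8.55% to 35.9% of a library. Between the 2 ovary libraries many genes differed: of 10902 genes with a mean normalised count of at least 50, 1343 lay 2-fold or more above the estrous value in the anestrous library and 867 lay 2-fold or more below it, against 147 and 119 of 11390 in the hypothalamus and 129 and 204 of 10720 in the pituitary. That balance depends on the scaling: with equal library totals the counts higher and lower were 1033 and 1242 in the ovary, 113 and 167 in the hypothalamus and 98 and 277 in the pituitary.

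All 3 calgranulins were near the floor of detection in 5 libraries and abundant in 1, the anestrous ovary. Levels are given first as RPM (reads per 1000000 gene reads), a scale that can be set side by side for 1 gene across tissues although the tables of the 3 tissues were normalised separately. Together the 3 genes gave 33 and 55 reads in the estrous and anestrous hypothalamus, 35 and 77 pituitary reads, and 23 and 5033 ovarian reads. Those sums were 2.15, 3.48, 2.06, 4.43, 1.49 and 306 RPM in the same order. The anestrous ovary was thus the highest of the 6 libraries. The estrous ovary was the lowest, but its exact 95% Poisson interval (0.941 to 2.23) overlapped that of the estrous pituitary (1.43 to 2.86). More cells that carry these transcripts and more transcript per cell cannot be told apart in bulk tissue.

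S100A8 (ENSSSCG00000006590), the smaller subunit of calprotectin, had 16 and 12 reads in the estrous and anestrous libraries of the hypothalamus, 9 and 10 in those of the pituitary, and 7 and 635 in those of the ovary. As levels these were 1.04, 0.759, 0.529, 0.575, 0.452 and 38.6 RPM. Only the anestrous ovary stood apart, at 38.6 RPM with an exact 95% Poisson interval from 35.7 to 41.8, while every neighbouring pair among the other 5 libraries had overlapping intervals. S100A9 (ENSSSCG00000006588), the larger subunit, had 11 and 20 hypothalamic, 12 and 41 pituitary, and 6 and 997 ovarian reads. Its levels were 0.718, 1.26, 0.705, 2.36, 0.387 and 60.7 RPM. Below the anestrous ovary (interval 56.9 to 64.5), the anestrous pituitary came next at 2.36 (1.69 to 3.20), which overlapped the anestrous hypothalamus but lay above the estrous pituitary (0.365 to 1.23).

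S100A12 (ENSSSCG00000006589) had 6 and 23 hypothalamic, 14 and 26 pituitary, and 10 and 3401 ovarian reads. The levels were 0.392, 1.45, 0.823, 1.496, 0.646 and 207 RPM. The anestrous ovary was again the library apart from its next neighbour, and at the low end the estrous hypothalamus (0.144 to 0.853) lay below the anestrous hypothalamus (0.922 to 2.18). For all 3 genes, then, the order of the 6 libraries was settled beyond counting error at its top, and nowhere else between neighbours.

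**Figure D1:**
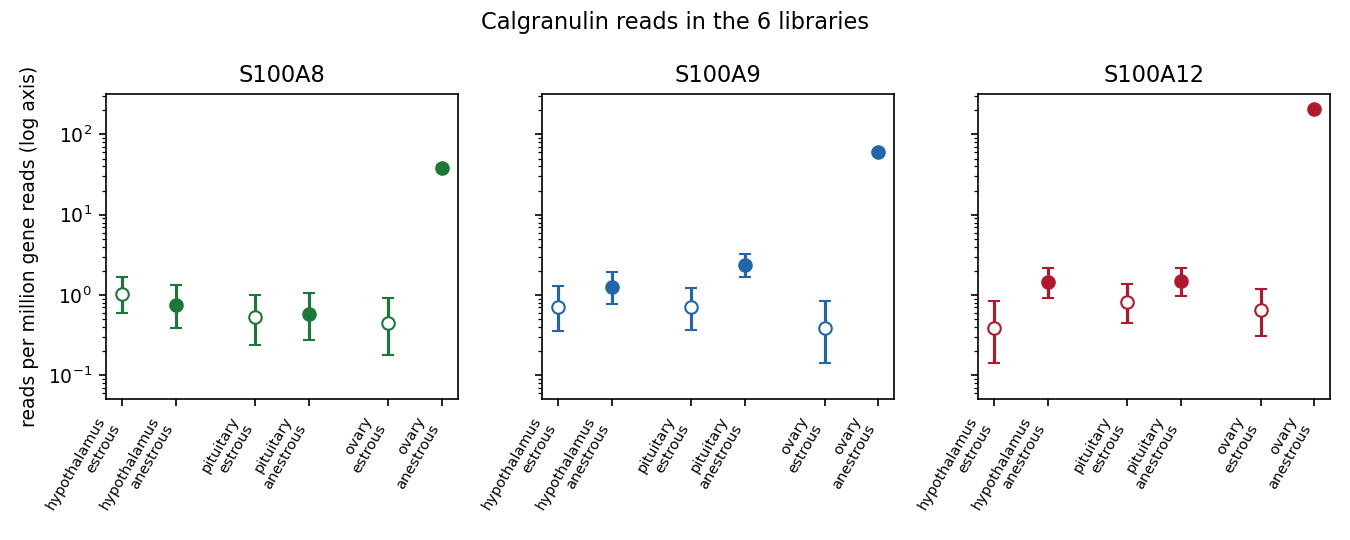
Level of S100A8, S100A9 and S100A12 in each of the 6 libraries, in RPM on a log axis; each point is 1 library and each bar its exact 95% Poisson interval, which covers counting error only. The anestrous ovary lies at 38.6, 60.7 and 207 RPM, and no other library exceeds 2.36.

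Within each tissue the anestrous library was then divided by the estrous one on the deposited normalised scale. In the ovary the ratio was 98.3 for S100A8 (exact conditional 95% interval 47.4 to 246), 180.1 for S100A9 (82.4 to 492) and 369 for S100A12 (200.2 to 769). The normalised counts behind these were 6.72 and 661 for S100A8, 5.76 and 1038 for S100A9, and 9.61 and 3540 for S100A12. On the scale of log2(normalised count + 1) the differences were 6.42, 7.26 and 8.38. Among the 10902 ovarian genes with a mean normalised count of at least 50, S100A12 ranked 4, S100A9 ranked 8 and S100A8 ranked 9 by this log2 difference, and 12.3% of those genes were 2-fold or more higher. The width of each interval comes from the estrous ovary, where each gene had 10 reads or fewer.

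In the authors' deposited table for the ovary the adjusted p was 1.64e-06 for S100A8, 1.02e-08 for S100A9 and 8.76e-12 for S100A12. Of 15972 genes with an adjusted p in the authors' deposited table, 93 (0.582%) were at or under 0.05 and higher in the anestrous ovary. The authors' deposited tables for the hypothalamus and pituitary give an adjusted p of 1 for each calgranulin. Those p-values come from 1 library a state, so they do not measure differences between sows.

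In the pituitary the ratio was 1.18 for S100A8 (0.430 to 3.27), 3.62 for S100A9 (1.87 to 7.57) and 1.97 for S100A12 (0.991 to 4.08). S100A9 thus had 41 reads against 12, beyond counting error, and for S100A8 no difference was detectable at 9 and 10 reads. In the hypothalamus the ratio was 0.774 for S100A8 (0.334 to 1.74), 1.88 for S100A9 (0.857 to 4.34) and 3.96 for S100A12 (1.57 to 11.9). Here S100A12 was the gene beyond counting error, with 23 reads against 6. No calgranulin reached a mean normalised count of 50 in either tissue, the means lying between 9.52 and 26.9, so none entered the counts of genes past 2-fold, which held 1.29% of genes as higher in the hypothalamus and 1.20% in the pituitary. Summed over the 3 genes, the ratio was 1.72 (1.10 to 2.73) in the hypothalamus, 2.33 (1.54 to 3.58) in the pituitary and 237 (158 to 374) in the ovary.

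**Figure D2:**
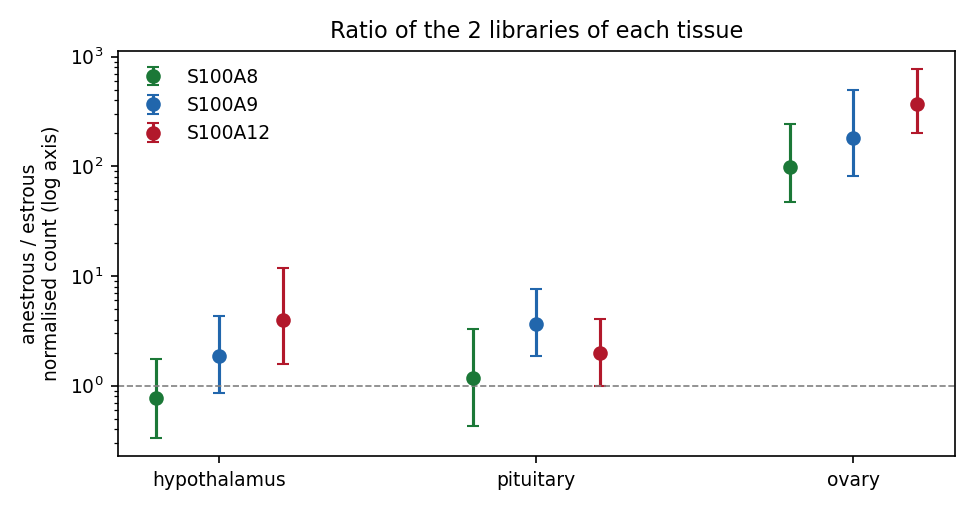
Anestrous over estrous ratio of the normalised count for each calgranulin in each tissue, on a log axis. Bars are exact 95% intervals from counting error, and the line marks a ratio of 1. All ovarian ratios lie at 98.3 or above, and all hypothalamic and pituitary ratios at 3.96 or below.

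**Figure D3:**
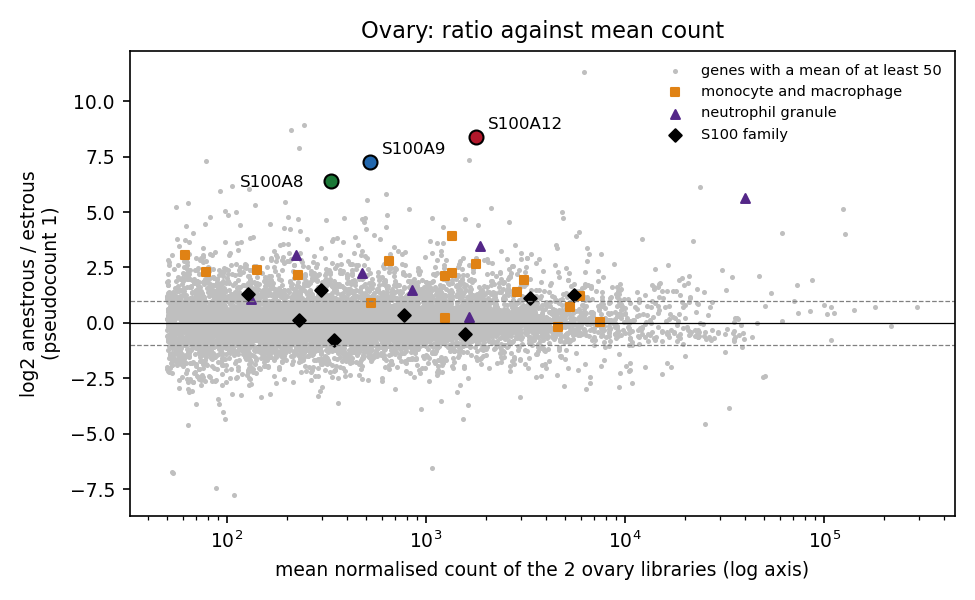
Genes of the ovary with a mean normalised count of at least 50, by their mean normalised count (log axis) and their log2 difference, anestrous minus estrous, with a pseudocount of 1; each dot is 1 gene, the calgranulins and 3 gene lists are coloured, and dashed lines mark 2-fold. They sit at 6.42, 7.26 and 8.38, near the upper edge of the cloud, above the S100 family and monocyte and macrophage genes shown.

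The 3 transcripts did not keep the same proportions in every library. In the anestrous ovary S100A12 made up 67.6% of the calgranulin reads (exact 95% binomial interval 66.3 to 68.9), S100A9 19.8% and S100A8 12.6%. Their shares in the estrous ovary were 43.5%, 26.1% and 30.4%, from 23 reads. S100A8 had 48.5% of 33 reads in the estrous hypothalamus and 12.99% of 77 in the anestrous pituitary, and S100A9 33.3% and 53.2% in the same libraries. A share of reads also depends on transcript length, which was not used here, so each share is compared between libraries and not between genes.

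The read ratio of S100A12 to S100A8 was 3.75 times as high in the anestrous as in the estrous ovary (exact interval 1.21 to 10.95) and 5.11 times as high in the anestrous as in the estrous hypothalamus (1.40 to 19.9). In the pituitary the same quotient was 1.67 (0.473 to 5.82), a difference not detectable at this depth. The quotients for S100A12 to S100A9 were 2.11, 0.544 and 2.05 and those for S100A9 to S100A8 2.42, 3.08 and 1.83 in hypothalamus, pituitary and ovary, and all 6 intervals contained 1.

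The calgranulin genes sit side by side, in the order S100A8, S100A12, S100A9, inside the cluster of S100 genes in the RefSeq gene table for the pig assembly Sscrofa11.1, which was used for gene order alone. Of their neighbours in that cluster S100A6 and S100A13 were not found by name. S100A7 (psoriasin), next toward S100A8 among the genes found by name, had 3 reads in the estrous and 0 in the anestrous ovary, and PGLYRP3, a peptidoglycan recognition protein beyond S100A9, had 4 and 6. S100A3 had 0 and 8 ovarian reads, and the exact lower bound of its ratio was 1.85, with no upper bound. S100A2 had 163 and 422 ovarian reads, a ratio of 2.81, and S100A4, the metastasis-associated family member, had 77 and 175, a ratio of 2.46. S100A14 and S100A16 lay the other way, with ratios of 0.589 and 0.701, and S100A1, a calcium sensor of muscle and nerve, stood at 1.28.

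**Figure D4:**
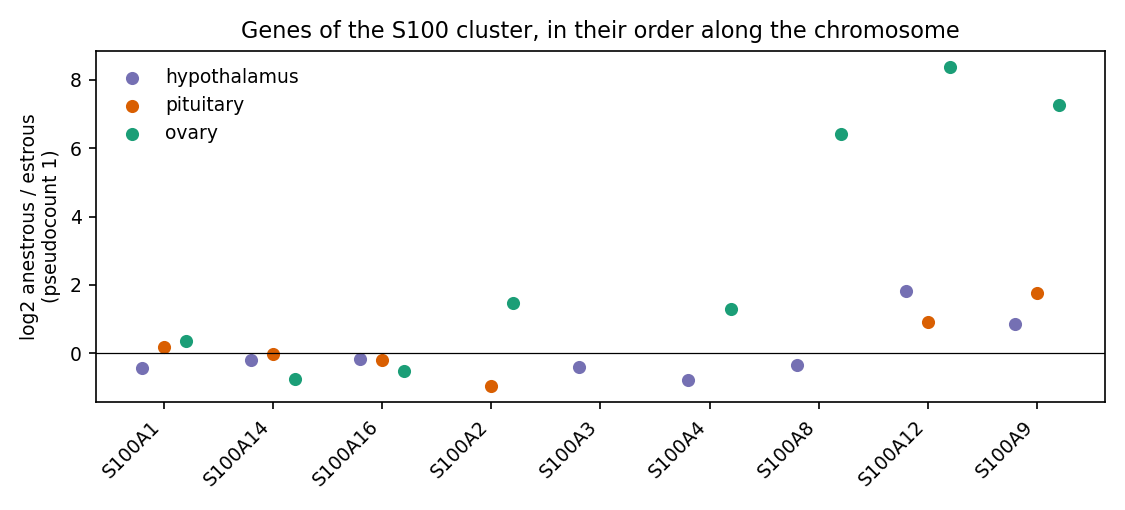
Log2 difference, anestrous minus estrous, of the genes of the S100 cluster in each tissue, in their order along the chromosome from the RefSeq gene table; a point is drawn where the mean normalised count is at least 10, which leaves out S100A8 in the pituitary. In the ovary S100A8, S100A12 and S100A9 stand at 6.42, 8.38 and 7.26, and S100A2 at 1.48 is the next highest.

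Across the other S100 genes, 12 of 16 were found by name, leaving out S100PBP, a binding protein of S100P that the list also held. In the ovary 7 had a mean normalised count of at least 10, and 4 of these were 2-fold or more higher in the anestrous library and 0 lower, with a median log2 difference of 1.14 (0.75 over 8 with S100PBP). With equal library totals 3 were higher. Over all ovarian genes with that minimum mean, 13.6% were 2-fold or more higher and 10.7% lower, and the median was 0.0054 (-0.0016 in the hypothalamus and -0.0025 in the pituitary). Beside S100A2 and S100A4 these were S100A11 (3398 and 7549 reads, ratio 2.41) and S100A10, the annexin A2 partner (2167 and 4398 reads, ratio 2.20). In the hypothalamus, where among all genes over that minimum 1.99% were 2-fold or more higher and 2.61% lower, 0 of 7 passed either way. In the pituitary, where these shares were 2.27% and 4.23%, 0 of 6 passed.

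Receptors and binding partners of the calgranulins were higher in the anestrous ovary for part of the list. Of 10 measured, 6 were 2-fold or more higher and 0 lower, with a median log2 difference of 1.14. This and each later list count stand beside the shares over all genes with the same minimum mean. Those shares were 13.6% higher and 10.7% lower in the ovary, 1.99% and 2.61% in the hypothalamus, and 2.27% and 4.23% in the pituitary. TLR4 had 574 reads in the estrous and 1724 in the anestrous ovary, a ratio of 3.25 (2.96 to 3.58). CD14, the co-receptor that presents ligands to TLR4, had 487 and 1941 reads (ratio 4.32), and LY96, which forms the receptor complex with TLR4, had 598 and 1141 (2.07). The adaptor MYD88 (ratio 2.45), the scavenger receptor CD36 (2.49) and the sialic acid receptor CD33 (2.36) completed the 6. AGER lay the other way, at 43 and 22 reads and a ratio of 0.554 (0.316 to 0.948), and it had at most 13 reads in each hypothalamic and pituitary library. In the hypothalamus 0 of 9 measured members passed 2-fold either way, and in the pituitary 0 of 10 were higher and 1 was lower.

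Genes that regulate calgranulin transcription were mixed. In the ovary 4 of 8 measured were 2-fold or more higher and 0 lower, with a median of 0.67. Over all ovarian genes 13.6% were higher and 10.7% lower. SPI1 (PU.1), a master factor of myeloid cells, had 821 and 4432 reads, a ratio of 5.85 (5.43 to 6.31), and CEBPA, which acts with it in granulocyte and monocyte precursors, had 62 and 305, a ratio of 5.33. The cytokine IL1A had 15 and 53 reads in the ovary and IL10 had 26 and 50. CEBPD had 3634 and 1859 ovarian reads, a log2 difference of -0.85, and KLF4 569 and 525. CEBPB, IL6, IL17A and IL22 were listed at 0 in all 6 libraries. For these and later genes listed at 0, absent expression and an entry that collected no reads cannot be told apart. In the hypothalamus 2 of 8 were lower, IL1A with 56 and 8 reads and TNF with 53 and 7, and in the pituitary 2 of 5 were lower, CEBPA and CEBPD, so the lists of the tissues did not share a direction.

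Calprotectin also carries arachidonic acid to the phagocyte NADPH oxidase, the enzyme of the respiratory burst. Beside 13.6% of all genes, all 4 measured subunits of that enzyme were 2-fold or more higher in the anestrous ovary. Their median log2 difference was 1.77. Among them NCF4 had 408 and 1448 reads and the catalytic subunit CYBB 673 and 1544. In the pituitary CYBB had 96 and 44 reads, and it was the 1 of 4 past 2-fold there, lower. In the hypothalamus 0 of 4 passed, with a median of -0.64.

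The deposited annotation gives S100A8, S100A9 and S100A12 8, 24 and 13 Gene Ontology terms, of which 4 are common to all 3: calcium ion binding, zinc ion binding, innate immune response and RAGE receptor binding. These groupings were looked at after the values had been seen. RAGE receptor binding is held by 4 genes, the calgranulins and S100A4, and all 4 were 2-fold or more higher in the anestrous ovary. The calgranulins were chosen by these same counts, so only S100A4 (ratio 2.46) adds to what was given for them. Toll-like receptor 4 binding is held by 3, S100A8, S100A9 and the adaptor TIRAP, which had 44 and 92 ovarian reads. Calcium ion binding had 60 of 302 measured genes 2-fold or more higher and 46 lower in the ovary, and zinc ion binding 61 and 44 of 550, beside 13.6% higher and 10.7% lower over all genes; the calgranulins are counted in both. Innate immune response covers 115 genes, the calgranulins included. Of its 88 measured in the ovary 25 were higher and 2 lower, against 2 and 2 of 87 in the hypothalamus and 2 and 6 of 83 in the pituitary. Neutrophil chemotaxis, held by 36 genes with S100A9 among them, had 13 of 31 higher and 3 lower in the ovary, 0 and 3 of 25 in the hypothalamus, and 2 and 1 of 24 in the pituitary.

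Since the calgranulins are made by particular leukocytes, markers of these and other cell types were read beside them. Among the neutrophil granule genes, 17 of 21 were found by name, and 7 of 8 measured in the ovary were 2-fold or more higher with 0 lower and a median log2 difference of 2.66. Without DEFB1, an epithelial beta-defensin on that list, it was 6 of 7 with a median of 3.05. The shares over all ovarian genes were 13.6% higher and 10.7% lower. LYZ, lysozyme, which macrophages make as well, had 1648 and 75250 reads, a ratio of 49.5 (47.1 to 52.0). The gene CHI3L1 had 321 and 3274 reads (ratio 11.1), LTF, lactoferrin, 49 and 382 (8.45), BPI 170 and 759 (4.84) and LCN2 469 and 1201 (2.78). MMP9 was the measured gene short of 2-fold, with 1554 and 1728 ovarian reads, a ratio of 1.21 (1.12 to 1.29). Some genes of the primary granules were few in reads: AZU1 had 0 and 21, MPO and PRTN3 each 0 and 12, and ELANE 1 and 2. CAMP was listed at 0 in all 6 libraries and MMP8 at 0 in both ovary libraries.

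Genes of the mature neutrophil could be read only in part, since 10 of 18 were found by name; CSF3R, CXCR1, CXCR2, FPR1, FPR2, FCGR3B, ALPL and MGAM were not found by name in the tables used here. Of 7 measured in the ovary 4 were 2-fold or more higher and 0 lower, with a median of 1.03. Among all ovarian genes the shares were 13.6% and 10.7%. TREM1, an amplifier of inflammatory signals on neutrophils and monocytes, had 6 and 190 reads, a ratio of 34.3 (15.5 to 94.7). VNN2 had 41 and 173 reads (ratio 4.57). CD177 had 2 and 14 reads and PADI4 15 and 24. The summed level of the list was 28.5 and 71.8 RPM in the estrous and anestrous ovary and between 9.76 and 14.7 in the other 4 libraries.

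The mature neutrophil list had 0 of 4 past 2-fold in the hypothalamus and 1 of 4 higher in the pituitary, VNN2 with 7 and 17 reads. The granule list had 0 of 5 in the hypothalamus, and 1 higher (LTF, 109 and 211 reads) and 4 lower of 8 in the pituitary. There LYZ had 133 and 59 reads and MMP9 23 and 7, the opposite direction to S100A9.

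Monocyte and macrophage genes were higher as well: 12 of 18 measured in the ovary by 2-fold or more and 0 lower, with a median of 2.03. For all ovarian genes the shares higher and lower were 13.6% and 10.7%. CSF1R, the receptor on which macrophages depend, had 176 and 2439 reads (ratio 15.0), MARCO, a scavenger receptor, 13 and 107 (8.92), CX3CR1 172 and 1091 (6.87), MSR1 499 and 2947 (6.40) and CD68, a lysosomal protein, 3745 and 7994 (2.31). The complement genes C1QA (5114 and 4130 reads) and C1QC (7608 and 7294) differed little. CD163, the haemoglobin receptor of resident macrophages, had 11 and 1 reads. Its mean normalised count of 5.80 lay under the minimum of 10, so it was not among the 18 measured. In each hypothalamic and pituitary library CD163 had at most 1 read. The summed level of the list went from 1756 to 2907 RPM in the ovary, from 1358 to 1065 in the hypothalamus and from 271 to 229 in the pituitary. CSF1R was the 1 member past 2-fold and higher in each of the other tissues, with ratios of 3.26 in the hypothalamus and 2.84 in the pituitary, where 1 other member was lower.

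Per 1000 reads of the monocyte and macrophage list, the calgranulins had 0.846 reads in the estrous ovary (0.536 to 1.27) and 105.3 in the anestrous ovary (102 to 108). The same quantity was 1.59 (1.09 to 2.23) and 3.27 (2.46 to 4.25) in the estrous and anestrous hypothalamus and 7.58 (5.27 to 10.6) and 19.3 (15.2 to 24.2) in the pituitary. Per 1000 reads of the mature neutrophil list it was 52.0 and 4265 in the ovary, 183 and 278 in the hypothalamus and 211 and 301 in the pituitary. Against the neutrophil granule list, whose summed level went from 278 to 5039 RPM in the ovary, it was 5.35 (3.38 to 8.03) and 60.8 (59.1 to 62.5) there. It was 92.7 and 177 per 1000 granule-list reads in the hypothalamus and 43.7 and 119 in the pituitary. Thus the anestrous ovary was the highest of the 6 libraries against the first 2 lists, and the anestrous hypothalamus against the granule list. The order against the granule list depends on LYZ, which gave 75250 of the 82822 list reads in the anestrous ovary. In the anestrous hypothalamus LYZ gave 49 of 310, and the quotient without LYZ was not computed. The part of these cell types in the calgranulin values was not tested.

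**Figure D5:**
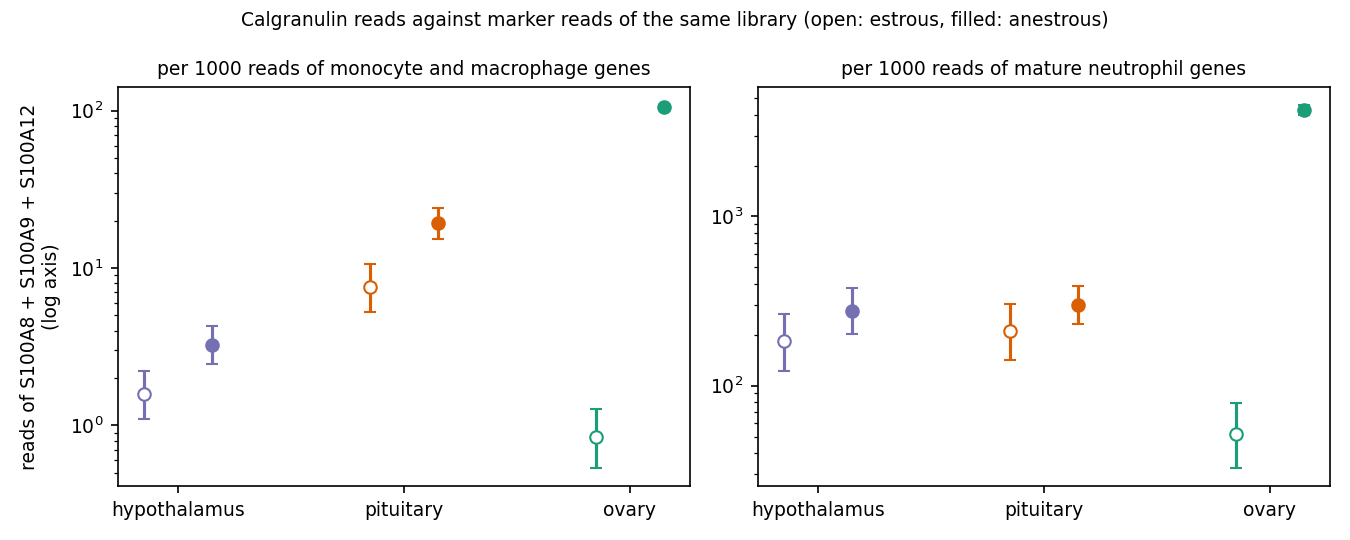
Calgranulin reads per 1000 reads of the monocyte and macrophage list and per 1000 reads of the mature neutrophil list, by library, on log axes; bars are exact 95% intervals from counting error. The anestrous ovary stands at 105.3 and 4265, above the other 5 libraries on both scales. Of the 18 mature neutrophil genes 10 were found by name. Against the neutrophil granule list, not drawn, the anestrous ovary stands at 60.8. That is below the estrous and anestrous hypothalamus (92.7 and 177) and the anestrous pituitary (119).

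Lists for other cell types that can carry calgranulins or that come with blood were also read. Their part in the calgranulin values was not tested. Over all ovarian genes 13.6% were 2-fold or more higher and 10.7% lower. Red cell genes were lower in the anestrous ovary, HBB with 801 and 254 reads and ALAS2 with 48 and 15, the 2 measured there, and the summed list stood at 54.9 and 16.5 RPM. They were 26.4 and 18.8 in the hypothalamus and 61.3 and 74.0 in the pituitary, where 0 of 2 and 0 of 3 passed 2-fold. Of the platelet genes 2 were measured in each tissue and PF4 and PPBP were listed at 0 in the ovary. There 1 of the 2 measured was 2-fold or more higher and 0 lower. THBS1, which many cells make, had 13727 and 53678 ovarian reads. ITGA2B lay the other way, with 211 and 113 ovarian reads and a ratio of 0.580 (0.458 to 0.733). Among T and B lymphocyte genes 3 of 11 were higher and 2 lower in the ovary with a median of -0.08, 0 and 2 of 6 in the hypothalamus, and 0 and 4 of 8 in the pituitary. Squamous and mucosal epithelium had 1 higher and 1 lower of 4 in the ovary, EPCAM with 75 and 346 reads and KRT19 with 220 and 50, 2 lower of 5 in the hypothalamus and 0 of 5 in the pituitary. Eosinophil and mast cell genes had 1 higher and 1 lower of 4 in the ovary, EPX with 13 and 51 reads and HDC, the histamine-forming enzyme, with 1285 and 151, and 0 past 2-fold of 3 and 2 elsewhere.

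Genes that draw neutrophils into tissue were divided. In the ovary 3 of 8 measured were higher and 1 lower, with a median of 0.44. Over all genes there 13.6% were higher and 10.7% lower. The complement receptor C5AR1 had 1507 and 4319 reads (ratio 3.11), the adhesion molecule ICAM1 126 and 302 (2.60) and the chemokine AMCF-II 3 and 21 (7.59). The chemokine CXCL2 had 219 and 39 reads, a log2 difference of -2.35, CXCL8 had 15 and 18, and the endothelial selectins SELE and SELP had 11 and 15, and 402 and 339. In the pituitary CXCL8 had 52 and 9 reads and was the 1 of 6 past 2-fold, lower, and in the hypothalamus 1 of 7 was lower.

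Ovulation genes respond to the luteinising hormone surge in the follicle. They showed 3 higher and 3 lower of 8 measured in the ovary, with a median of 0.33. All ovarian genes had 13.6% higher and 10.7% lower. Hyaluronan synthase 2 (listed as SHAS2), which builds the cumulus matrix, had 2 and 120 reads, AREG, an epidermal growth factor receptor ligand, 9 and 87, and RUNX1 166 and 519. PTX3, a cumulus matrix protein, had 757 and 233 reads, and PGR, the progesterone receptor, 110 and 44. ADAMTS1, a matrix protease, had 834 and 291 in one of its 2 entries and 450 and 426 in the other. The list had 2 lower of 8 in the hypothalamus and 2 lower of 5 in the pituitary.

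Genes that bind or move metals are the other side of calgranulin function. In the ovary, beside 13.6% and 10.7% over all genes, 4 of 10 were higher and 0 lower, with a median of 0.75. These were LTF and LCN2, given above, HP, haptoglobin, with 226 and 1037 reads (ratio 4.97), and TFRC, the transferrin receptor, with 158 and 627 (4.30). FTL, a ferritin chain, had 85949 and 129126 reads, a ratio of 1.63. In the hypothalamus 0 of 10 passed 2-fold and in the pituitary 1 was higher, LTF, and 1 lower of 10.

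The genes nearest to each calgranulin in pattern were ranked by the largest gap, over the 3 tissues, between their log2 difference and the calgranulin's, among 10396 named genes with a mean normalised count of at least 10 in every tissue. For S100A9 and S100A12 the nearest gene was the other, with a gap of 1.12. S100A8, whose pituitary mean lies under that minimum, was therefore not a candidate for the other calgranulins. For S100A8 itself the nearest was MSMB, microseminoprotein beta, with a gap of 0.43 and 692 and 44848 ovarian reads, followed by the glutamate transporter SLC1A1 (0.65), the neurotrophin BDNF (0.75), the tubulin TUBB3 (0.86) and the neuropeptide precursor GAL (1.07). After S100A12, S100A9 had MSMB (1.17), TUBB3 (1.71), GAL (1.91) and SOD3, an extracellular superoxide dismutase (2.08). After S100A9, S100A12 had SLC1A1 (2.21), MSMB (2.25), BDNF (2.35) and CTHRC1 (2.58). The measure is taken over 3 tissues and rests mainly on the ovarian difference.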

How the data were processed

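Total RNA of 6 libraries was sequenced, 1 per tissue and state. The deposited tables hold, per the file headers, a normalised signal per gene for each of the 2 libraries of a tissue and an adjusted p-value; they are named for DESeq. The submitters' processing notes name TopHat2 2.1.0. Counter, build, annotation and strand are not given in the sources used here. Reads of overlapping or antisense genes cannot be told apart. All deposited signal values were whole multiples of 1 step per library (tolerance 0.01 of a read), which gave back the reads. Gene names came from the tables (12765 of 19465 genes) and an Ensembl name table (14422 in all); gene order from RefSeq (Sscrofa11.1). No coordinates are printed.

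Ratios are anestrous over estrous normalised signal, with exact conditional binomial 95% intervals; levels have exact Poisson intervals; log2 differences use a pseudocount of 1. A gene counts as higher or lower at 2-fold with a mean of at least 50, or 10 for lists. The script was tested on simulated data. Named genes are the calgranulins, S100 genes with a mean of at least 10, up to 5 genes per list and tissue with the largest log2 difference and a mean of at least 50, defining neutrophil genes, and the 5 nearest patterns per calgranulin; further list genes and annotation groups were named after their values were seen. The calgranulins and the 15 other gene lists (S100 family, receptors, regulators, NADPH oxidase, neutrophil granule, mature neutrophil, recruitment, monocyte and macrophage, lymphocyte, platelet, red cell, epithelium, eosinophil and mast cell, ovulation, metal handling) were chosen with earlier results of these data known. Alternatives were equal library totals, trimmed mean scaling (edgeR 4.0.16), a pseudocount of 5, other minimum means, and edgeR and DESeq2 1.42.0 fits on recovered reads with tissue as a term. Python 3.11.15, scipy 1.17.1 and R 4.3.3 were used. Some results on list genes are not reported here.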

Additional observations from a re-analysis of the deposited data

Results flagged for a closer look

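The ratio of S100A8 between anestrous and estrous libraries was 0.774 in the hypothalamus, 1.18 in the pituitary and 98.3 in the ovary, so 1 library pair lay below 1 and the others above; the difference between tissues was not tested. LYZ had a log2 difference of -1.08 in the pituitary and 5.63 in the ovary, opposite directions whose difference was not tested. CYBB stood at -1.03 in the pituitary and 1.31 in the ovary, also untested. The second of the 2 entries named DEFB1, an epithelial beta-defensin, stood at -1.55 in the pituitary and 1.10 in the ovary, again with no test of the difference.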

How the results depend on the processing

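Under equal library totals, trimmed mean scaling and a pseudocount of 5, all 27 recomputed calgranulin values stayed in the direction of the 9 reported and moved by less than their counting intervals. Equal totals shifted the log2 of every ratio, taken with no pseudocount, by -0.09 in the hypothalamus, -0.12 in the pituitary and -0.20 in the ovary. Over all lists they left 48 genes higher and 12 lower in the ovary, where 54 and 10 had been counted, and LTF in the pituitary fell short of 2-fold. With no minimum mean, genes 2-fold higher and lower numbered 845 and 877 in the hypothalamus, 965 and 1139 for the pituitary, and 2534 and 2223 for the ovary; with a minimum of 200 they numbered 75 and 29, 48 and 84, and 880 and 501. With a minimum of 50 for the lists, genes lower by 2-fold numbered 2 in the hypothalamus, where 9 had been counted, and 6 in the pituitary, where 17 had. Without the 100 genes with most reads, the summed calgranulin level was 3.23 and 5.37 RPM in the estrous and anestrous hypothalamus, 3.83 and 8.79 for the pituitary, and 441 for the anestrous ovary. Fits over the 3 tissues take the tissues for replicates of the state, though they are none: edgeR's quasi-likelihood test called 0 of 13533 genes (484 at an unadjusted p under 0.05) and gave each calgranulin an adjusted p of 0.973, and DESeq2 called 23 higher and 23 lower (556 at an unadjusted p under 0.05), with adjusted p of 1.00, 0.471 and 1.00 for S100A8, S100A9 and S100A12. The alternative of using a gene's most-read row alone was not run, since each calgranulin has 1. No paired analysis was possible because each group has 1 library and nothing ties libraries to single sows; the tissue term in those fits pairs the states by tissue only. The estrous ovary, with 23 calgranulin reads, sets the width of the ovarian intervals. Leaving S100PBP and DEFB1 out of their lists was chosen after seeing the data.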
